A study of Mus musculus with 6 samples.

Results

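The genes described here are the mouse interferon-stimulated genes and interferon regulatory factors, followed in RNA-seq libraries of the aorta. Members were matched by gene symbol alone, under a rule set with earlier results of these data known: the Ifit and Ifitm, Oas, Gbp and Irf families, genes named Ifi followed by a digit, the Isg genes, the Irgm, Igtp and Iigp GTPases, and single genes such as Stat2, Ifih1, Ddx58, Zbp1, Mx1, Mx2, Rsad2, Usp18 and Bst2. This rule found 81 members among the 29752 genes listed for each library. Of these, 51 reached at least 1 FPKM in at least 3 libraries and were tested, and 30 did not. FPKM is the number of reads on a gene, scaled to its length and to the reads of the library.

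The Palmd heterozygote group held 3 libraries (title PALMD+/-) and the WT group 3 libraries. Palmd encodes palmdelphin, a cytosolic protein related to the paralemmins. All mice were of the C57BL/6 strain and 15 weeks old, and all had eaten normal diet since 8 weeks of age, for 7 weeks. The alteration made in Palmd is not described in the labels. Nor do they tie libraries to animals, so p-values measure the spread between these samples, which may be technical.

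Interferons are secreted proteins of the antiviral response. Type I interferons act through the receptor chains Ifnar1 and Ifnar2 and the kinases Jak1 and Tyk2 to form a complex with Stat2 and Irf9 that binds interferon-stimulated response elements (ISRE), and interferon gamma acts through Ifngr1, Ifngr2, Jak1 and Jak2 on genes with gamma-activated sites (GAS). The genes switched on sense viral RNA, block viral entry and replication, or attack intracellular microbes, and cells of the vessel wall as well as resident immune cells can respond.

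Promoter stretches are shown because response elements are the sequence feature through which these genes are known to be induced, and the gene selection made no use of sequence. They were taken from the RefSeq promoter table (build GRCm38.p6), which held 59 of the 81 members by symbol, and the 250 bases before each start were searched on both strands. The ISRE letters were GAAA, any 2 bases and GAAA again, or TTTC, any 2 bases and TTTC on the other strand. The GAS letters were TTCNNNGAA, which read the same on both strands. The letters of the 2 motifs can overlap each other. Capitals mark matched letters, and each line is written 5′ to 3′ on the strand of its gene.
Irgm1, chr11:48871421-48871470, minus strand: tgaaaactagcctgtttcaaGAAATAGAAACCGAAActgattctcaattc
Irgm2, chr11:58214882-58214942, plus strand: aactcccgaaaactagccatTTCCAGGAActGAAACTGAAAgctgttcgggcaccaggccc
Igtp, chr11:58199491-58199551, plus strand: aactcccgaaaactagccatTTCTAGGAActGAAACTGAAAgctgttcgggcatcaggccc
Ifi205, chr1:174031860-174031909, minus strand: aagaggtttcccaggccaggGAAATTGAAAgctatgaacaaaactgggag
Irf2, chr8:46739495-46739549, plus strand: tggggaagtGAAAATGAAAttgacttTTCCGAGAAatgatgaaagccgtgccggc
Rsad2, chr12:26456543-26456592, minus strand: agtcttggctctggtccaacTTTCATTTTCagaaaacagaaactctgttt
Isg15, chr4:156200855-156200916, minus strand: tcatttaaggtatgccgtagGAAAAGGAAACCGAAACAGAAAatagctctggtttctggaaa
Ifit3, chr19:34583353-34583436, plus strand: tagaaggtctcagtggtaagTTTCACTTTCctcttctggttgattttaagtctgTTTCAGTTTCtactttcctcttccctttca
Gbp2, chr3:142620584-142620633, plus strand: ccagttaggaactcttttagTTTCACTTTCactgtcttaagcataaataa

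Irgm1, Ifi205 and Irf2 are the tested members whose libraries did not overlap between the groups. Igtp and Irgm2 are neighbouring GTPases with log2 fold changes of −0.47 and −0.39, and their stretches were identical at 59 of 61 bases, with a GAS match just before an ISRE match in both. Rsad2, Isg15, Ifit3 and Gbp2 stand for the antiviral effectors and the guanylate-binding proteins. ISRE letters were present in 31 of the 59 member promoters (52.5%), and in 936 of 27025 promoters of all genes in the table (3.46%). GAS letters were present in 13 of the 59 (22.0%), and in 2197 of all 27025 (8.13%). A match is a run of letters in this window and not a measured binding site.

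The reads by which the authors scaled each library, recovered from the steps between low FPKM values, numbered 17283951 to 18372131. For a gene 2 kb long, 1 read was worth 0.0272 to 0.0289 FPKM. Genes above 0 numbered 21484 to 22565 per library. Heterozygote library 2 stood apart, with a mean correlation of 0.930 with the other libraries, against 0.960 to 0.971 for each of the others. It also had the lowest summed FPKM of the smooth muscle markers (4640.5, against 6962.8 to 10051 in the others) and of the endothelial markers (177.05, against 517.16 to 593.05), and the highest of the white adipocyte markers (4298.3, against 1272.9 to 3201.2). The endothelial markers were not uniform, since Pecam1, Cdh5 and Tie1 were lowest in heterozygote library 2 but Kdr and Emcn were not. Kdr was highest there (14.6 FPKM, against 3.43 to 5.42 FPKM in the others), and Emcn (5.43 FPKM) lay within the range of the others. Palmd itself had 5.31, 7.19 and 6.21 FPKM in heterozygote libraries and 5.49, 7.88 and 10.1 FPKM in WT libraries. Its log2 fold change was −0.26 (SE 0.21, limma adjusted p = 0.915), and the groups overlapped.

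No interferon gene passed the test between Palmd heterozygote and WT aortas after adjustment over all genes. The members were expressed at low to moderate levels in both groups, and more members had negative than positive fold changes. Of the 51 tested members 38 had a negative fold change (74.5%) and 13 a positive one, with a median log2 fold change of −0.11, against a median of 0.01 and 46.9% negative over all 12620 tested genes. Without WT library 2 the median of the members was −0.04, with 30 of 50 tested members negative. The immunity-related GTPases (median −0.36) and the Ifi200 genes (median −0.25) lay lowest, while the Oas (median 0.01) and Gbp (median −0.01) families lay near 0. Fold changes here are Palmd heterozygote over WT after adding 1 FPKM to each value, so for genes at a few FPKM they are smaller than the ratio of the means. Members share regulators and some share exons, so their directions are not independent of each other.

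The test was limma with a mean-variance trend across all 12620 genes. It called 0 of the 51 members at an adjusted p of 0.05, where it called 0 of all genes (0%). With array quality weights per library it called 0 members and 232 genes in all. In the unweighted fit the members' adjusted p ranged from 0.620 to 1.00. At an unadjusted p of 0.05, 1 member passed, against 6.50% of all genes. Without WT library 1 that number was 8 of 50 members, against 6.35% of all genes, without heterozygote library 2 it was 5 of 50, against 13.9%, and with median-ratio scaling it was 3 of 51, against 6.62%. The 3 heterozygote libraries all lay below the 3 WT libraries for 3 members (5.88%) and above them for 0 members, against 12.9% of all genes without overlap in either direction, 5.12% lower and 7.80% higher. The members' share without overlap was thus not above that of all genes with all 6 libraries. Without WT library 1, 13 of 50 members were without overlap, against 23.1% of all genes. On the log2(FPKM + 1) scale, for 44 of the 51 members the 95% interval lay within 1 log2 unit of 0, and for 7, among them Ifi27, Ifi27l2a, Ifit1, Igtp, Rsad2 and Irf4, it reached beyond. That scale shrinks the changes of low genes, so these intervals do not bound the ratio of the FPKM values.

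**Figure D1:**
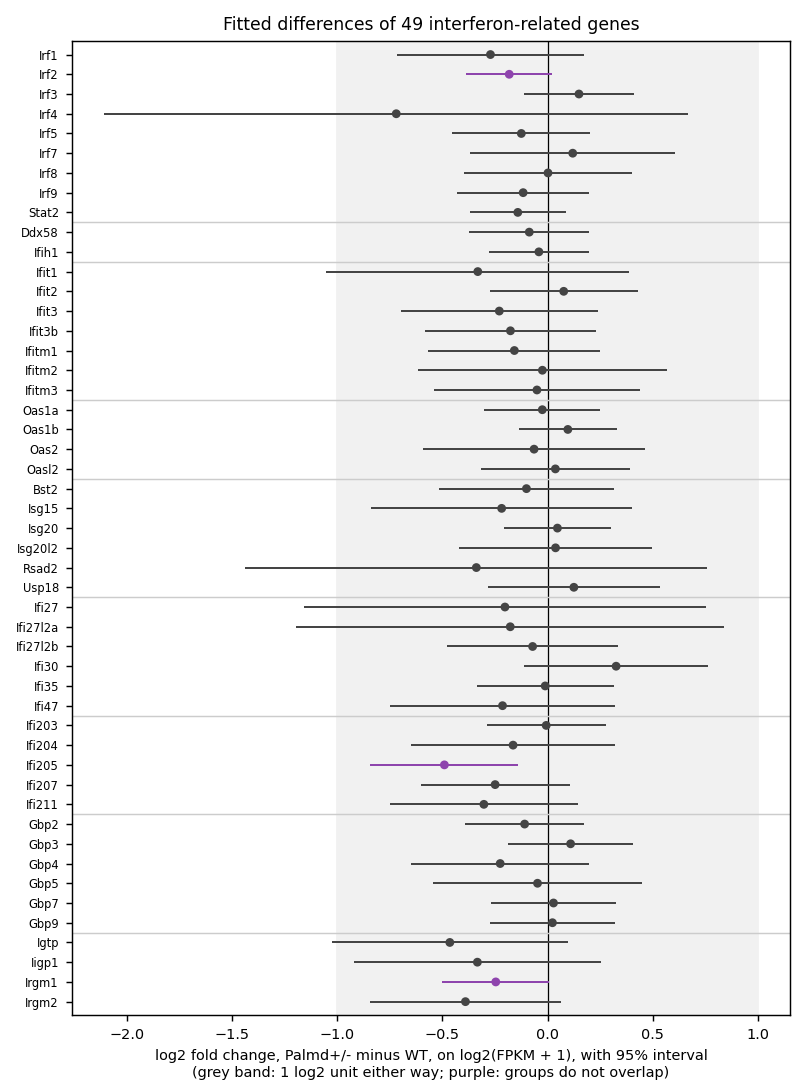
Log2 fold change (Palmd heterozygote over WT, log2(FPKM + 1) scale) of 49 tested members by role, with 95% intervals from limma, a grey band for 1 log2 unit either way, and purple for members without overlap. The interval of Ifi205 alone lies wholly below 0, but Ifi205 reached the level for testing through the WT libraries alone, and Ifi30 has the highest value at 0.33.

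Levels differed far more between members than between groups. Averages are given with their SD over n = 3 libraries in each group. Of the tested members 45 had mean levels between 1 and 20 FPKM, and 3 were above 100 FPKM, namely Ifi27l2a, Ifi27 and Ifitm3. Of the 81 members 3 were listed at 0 in all 6 libraries, namely Ifi202b, Oas1d and Oas1f. In all 28 members share exons with another annotated gene. Since the library kit is not described as keeping strand, reads of partners on opposite strands cannot be told apart, and that applies to Irf1, Irf3, Irf5 and Irf7 among the factors. It also applies to Ifi30. Irf9 shares exons with Rnf31 on the same strand, and Ifi47 does so with Olfr56, so their reads are not fully separate.

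**Figure D2:**
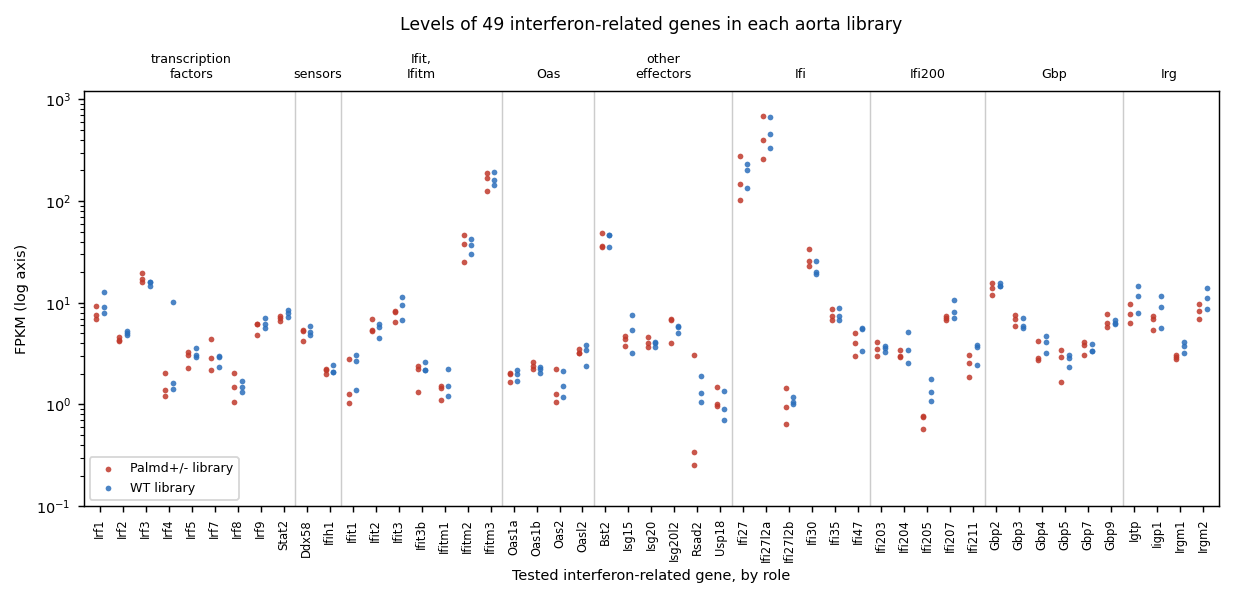
FPKM (log axis) of 49 tested members in each library, by role, with Palmd heterozygote libraries beside WT libraries. The groups do not overlap for 3 members (Ifi205, Irgm1 and Irf2), and levels run from 0.253 FPKM (Rsad2) to 687 FPKM (Ifi27l2a), both in heterozygote libraries.

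All 11 transcription factors were tested, and 8 had a negative and 3 a positive fold change, with a median of −0.12; Irf8, at 0.0020, turned to −0.019 with median-ratio scaling. Irf2 (ENSMUSG00000031627, chr8:46739732-46847458), which competes with Irf1 for the same elements and mostly represses them, had 4.22, 4.29 and 4.57 FPKM in heterozygote libraries and 4.86, 5.28 and 5.10 FPKM in WT libraries. Every heterozygote library lay below every WT library, although the difference was small. The means were 4.36 ± 0.184 FPKM in heterozygotes and 5.08 ± 0.212 FPKM in WT (SD, n = 3 each), and the log2 fold change was −0.18 (SE 0.08, limma adjusted p = 0.788). By exact permutation of the libraries the two-sided p was 0.1, the smallest that 3 libraries against 3 allow. The Irf2 promoter stretch printed above holds ISRE letters followed by GAS letters.

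Irf1 (chr11:53770014-53778374), an activator induced by interferon gamma, had 7.59, 9.33 and 6.94 FPKM in heterozygotes and 7.97, 12.7 and 9.11 FPKM in WT, averaging 7.95 ± 1.23 FPKM in heterozygotes and 9.92 ± 2.46 FPKM in WT. The groups overlapped, and WT library 2 was the highest (log2 fold change −0.27, SE 0.19, limma adjusted p = 0.880, and −0.098 as a log2 fold change without that library). Stat2, the transactivating subunit of the type I complex, had 7.07, 7.41 and 6.68 FPKM in heterozygotes and 7.28, 7.96 and 8.43 FPKM in WT, averaging 7.05 ± 0.365 FPKM in heterozygotes and 7.89 ± 0.582 FPKM in WT. Only heterozygote library 2 exceeded the lowest WT library (log2 fold change −0.14, SE 0.09, limma adjusted p = 0.872). Irf9, the DNA-binding subunit of the same complex, averaged 5.71 ± 0.819 FPKM in heterozygotes and 6.26 ± 0.704 FPKM in WT, with overlap between the groups (SD, n = 3 each).

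The factors that switch on interferon genes themselves did not share a direction. Irf3, which is activated by viral sensing, was the most abundant factor and averaged 17.5 ± 1.76 FPKM in heterozygotes and 15.6 ± 0.801 FPKM in WT (log2 fold change 0.15, limma adjusted p = 0.891). Irf7, which amplifies type I interferon production, averaged 3.14 ± 1.13 FPKM in heterozygotes and 2.73 ± 0.349 FPKM in WT, and Irf5, a factor of macrophages, averaged 2.87 ± 0.542 FPKM in heterozygotes and 3.20 ± 0.348 FPKM in WT. Irf8, needed for myeloid development, averaged 1.53 ± 0.496 FPKM in heterozygotes and 1.50 ± 0.187 FPKM in WT.

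Irf4 was described per library after its values were seen, because a single library sets it. It encodes a factor of lymphocytes that also acts in fat cells, and it had 1.21, 2.04 and 1.38 FPKM in heterozygotes and 1.64, 1.43 and 10.1 FPKM in WT, averaging 1.54 ± 0.440 FPKM in heterozygotes and 4.40 ± 4.97 FPKM in WT. WT library 3 held 895 reads of Irf4, against 108 to 173 in the other 5, and without that library the log2 fold change of −0.72 (SE 0.58, limma adjusted p = 0.914) became −0.0081. The summed B cell markers were lowest in that same library (1.56 FPKM, against 2.65 to 11.0 FPKM in the others). Its summed white adipocyte markers (3201.2 FPKM) were exceeded only in heterozygote library 2 (4298.3 FPKM). The part of other cell types in the Irf4 value was not tested. In whole aorta, fewer cells of a type and less RNA per cell cannot be told apart.

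The cytosolic RNA sensors had fold changes near 0. Ddx58, which encodes RIG-I, had 5.34, 4.23 and 5.23 FPKM in heterozygotes and 5.11, 5.91 and 4.86 FPKM in WT, averaging 4.93 ± 0.614 FPKM in heterozygotes and 5.29 ± 0.546 FPKM in WT (log2 fold change −0.09, SE 0.12, limma adjusted p = 0.952). Ifih1, which encodes MDA5, had 2.22, 2.17 and 1.98 FPKM in heterozygotes and 2.09, 2.11 and 2.45 FPKM in WT, averaging 2.12 ± 0.127 FPKM in heterozygotes and 2.22 ± 0.202 FPKM in WT (log2 fold change −0.04, SE 0.10, limma adjusted p = 0.974). Both sensors overlapped between the groups. Zbp1, a sensor of left-handed nucleic acid, was not tested, with 0.419, 1.15 and 0.745 FPKM in heterozygotes and 0.496, 1.14 and 0.850 FPKM in WT.

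Of the 13 Ifit and Ifitm genes 7 were tested, 6 with a negative and 1 with a positive fold change (median −0.16). The Ifit proteins bind foreign RNA and hinder its translation, and 4 tested Ifit genes lie within chr19:34550694-34650009. Ifit3 had 8.03, 8.39 and 6.50 FPKM in heterozygotes and 6.74, 11.5 and 9.61 FPKM in WT, averaging 7.64 ± 1.01 FPKM in heterozygotes and 9.28 ± 2.39 FPKM in WT (log2 fold change −0.23, SE 0.19, limma adjusted p = 0.919). Ifit1 had 1.28, 2.81 and 1.03 FPKM in heterozygotes and 1.38, 2.66 and 3.03 FPKM in WT, averaging 1.71 ± 0.964 FPKM in heterozygotes and 2.36 ± 0.867 FPKM in WT (log2 fold change −0.33, SE 0.30, limma adjusted p = 0.924). Ifit3b had 2.38, 2.23 and 1.31 FPKM in heterozygotes and 2.63, 2.18 and 2.17 FPKM in WT, averaging 1.97 ± 0.577 FPKM in heterozygotes and 2.32 ± 0.263 FPKM in WT (log2 fold change −0.18, SE 0.17, limma adjusted p = 0.924). For all of these, the spread within a group was as large as the difference. With each library left out, the log2 fold change ran from −0.42 (without WT library 1) to −0.076 (without WT library 2) for Ifit3, and from −0.61 (without heterozygote library 2) to −0.15 (without heterozygote library 3) for Ifit1. Ifit2 alone leaned the other way, with 5.87 ± 0.907 FPKM in heterozygotes and 5.52 ± 0.871 FPKM in WT (SD, n = 3 each).

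The Ifitm proteins, which stop viral membranes from fusing, included the abundant Ifitm3. It had 167, 126 and 187 FPKM in heterozygotes and 143, 191 and 159.7 FPKM in WT, averaging 159.8 ± 31.1 FPKM in heterozygotes and 165 ± 24.5 FPKM in WT, a log2 fold change of −0.05 (SE 0.20, limma adjusted p = 0.987). Ifitm2 had 38.0, 25.3 and 46.6 FPKM in heterozygotes and 30.0, 42.6 and 37.0 FPKM in WT, with nearly equal means of 36.6 ± 10.7 FPKM in heterozygotes and 36.5 ± 6.33 FPKM in WT (log2 fold change −0.02, SE 0.25, limma adjusted p = 0.995). Both genes had their lowest value in heterozygote library 2. Ifitm1 averaged 1.35 ± 0.213 FPKM in heterozygotes and 1.65 ± 0.532 FPKM in WT (SD, n = 3 each). Of the untested genes, the highest value was 1.09 FPKM, for Ifitm10. Its levels were 0.480, 0.556 and 0.732 FPKM in heterozygotes and 1.09, 0.841 and 0.962 FPKM in WT, without overlap but below the level for testing. Ifit1bl2 had 0.309, 0.275 and 0.146 FPKM in heterozygotes and 0.114, 0.0323 and 0.0495 FPKM in WT, from 9 to 19 reads in heterozygotes and 2 to 7 reads in WT. Ifitm10 was named by its mean and Ifit1bl2 after its values were seen. The other untested members were Ifitm6 (mean 0.803 FPKM), Ifit1bl1, Ifitm5 and Ifitm7.

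The Oas enzymes make oligoadenylates that activate RNase L, and 4 of the 12 genes were tested, with 2 positive and 2 negative fold changes. Oas1b is annotated as a polymorphic pseudogene. It had 2.25, 2.41 and 2.61 FPKM in heterozygotes and 2.25, 2.32 and 2.03 FPKM in WT, averaging 2.43 ± 0.179 FPKM in heterozygotes and 2.203 ± 0.150 FPKM in WT (log2 fold change 0.10, SE 0.10, limma adjusted p = 0.927). Oas2 had 1.28, 2.24 and 1.05 FPKM in heterozygotes and 1.18, 2.15 and 1.51 FPKM in WT, averaging 1.52 ± 0.631 FPKM in heterozygotes and 1.61 ± 0.494 FPKM in WT (log2 fold change −0.06, SE 0.22, limma adjusted p = 0.985). Oasl2, an Oas-like gene, had 3.20, 3.49 and 3.17 FPKM in heterozygotes and 2.40, 3.81 and 3.45 FPKM in WT, averaging 3.28 ± 0.175 FPKM in heterozygotes and 3.22 ± 0.735 FPKM in WT (log2 fold change 0.04, SE 0.15, limma adjusted p = 0.987). All 3 overlapped between the groups, as did Oas1a, with means of 1.90 ± 0.209 FPKM in heterozygotes and 1.95 ± 0.245 FPKM in WT. The untested genes were led by Oas1c, with 0.865, 0.794 and 1.16 FPKM in heterozygotes and 0.774, 0.272 and 0.623 FPKM in WT, which did not overlap. It was followed by Oasl1 (mean 0.614 FPKM), Oas1g (0.218) and Oas3 (0.129).

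Among the other antiviral effectors 6 of 8 were tested, 3 with a positive and 3 with a negative fold change. Isg15, a ubiquitin-like protein attached to other proteins, had 3.77, 4.36 and 4.71 FPKM in heterozygotes and 3.18, 7.63 and 5.36 FPKM in WT, averaging 4.28 ± 0.476 FPKM in heterozygotes and 5.39 ± 2.22 FPKM in WT. WT held both the lowest and the highest library (log2 fold change −0.22, SE 0.26, limma adjusted p = 0.941). Usp18, which removes Isg15 and restrains the type I receptor, had 0.962, 1.49 and 1.02 FPKM in heterozygotes and 0.706, 0.897 and 1.35 FPKM in WT, averaging 1.16 ± 0.291 FPKM in heterozygotes and 0.986 ± 0.333 FPKM in WT (log2 fold change 0.13, SE 0.17, limma adjusted p = 0.952). Bst2, the membrane tether that holds back budding virions, had 35.5, 35.9 and 48.0 FPKM in heterozygotes and 35.6, 46.2 and 46.1 FPKM in WT, averaging 39.8 ± 7.11 FPKM in heterozygotes and 42.6 ± 6.07 FPKM in WT (log2 fold change −0.10, SE 0.17, limma adjusted p = 0.961). Both genes overlapped between the groups.

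Rsad2, which encodes viperin, varied most of the tested members, with a highest value 12.0 times the lowest. It had 0.253, 3.04 and 0.341 FPKM in heterozygotes and 1.06, 1.29 and 1.91 FPKM in WT, averaging 1.21 ± 1.59 FPKM in heterozygotes and 1.42 ± 0.438 FPKM in WT. The reads behind these values were 20, 228 and 27 in heterozygotes and 84, 103 and 149 in WT, so that heterozygote library 2 held the highest value and the other 2 heterozygote libraries the lowest. The log2 fold change was −0.34 (SE 0.46, limma adjusted p = 0.951), and it ranged from −0.89 to −0.04 when each library in turn was left out. Without heterozygote library 2 it was −0.89, and with log2(FPKM + 0.1) on all 6 libraries −0.91. The exonuclease gene Isg20 averaged 4.11 ± 0.489 FPKM in heterozygotes and 3.94 ± 0.252 FPKM in WT. Isg20l2, included by its symbol, averaged 5.90 ± 1.62 FPKM in heterozygotes and 5.59 ± 0.435 FPKM in WT (SD, n = 3 each). The untested Mx1 and Mx2, genes of dynamin-like GTPases, stayed between 0.182 and 0.476 FPKM in every library, and Mx2 is annotated as a polymorphic pseudogene.

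The genes named Ifi outside the Ifi200 cluster included the most abundant members. Of 7 genes 6 were tested, 1 with a positive and 5 with a negative fold change. Ifi30, a lysosomal thiol reductase of antigen-presenting cells, had 25.8, 23.1 and 34.1 FPKM in heterozygotes and 19.2, 25.7 and 20.3 FPKM in WT, averaging 27.7 ± 5.73 FPKM in heterozygotes and 21.8 ± 3.50 FPKM in WT, the highest fold change among the tested members (log2 fold change 0.33, SE 0.18, limma adjusted p = 0.834). Its groups overlapped only because heterozygote library 2 lay below WT library 2. Summed macrophage markers were 384.64, 383.92 and 511.96 FPKM in heterozygotes and 353.16, 447.75 and 435.57 FPKM in WT, with 8 of the 9 markers higher and 1 lower in the fit, and their part in the Ifi30 value was not tested. Ifi47, a GTPase related to the Irgm genes, had 3.99, 3.02 and 5.05 FPKM in heterozygotes and 3.34, 5.52 and 5.68 FPKM in WT, averaging 4.02 ± 1.02 FPKM in heterozygotes and 4.85 ± 1.31 FPKM in WT (log2 fold change −0.21, SE 0.22, limma adjusted p = 0.930).

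Ifi27l2a and Ifi27 encode small membrane proteins and lie close together on chromosome 12. Ifi27l2a had 259, 687 and 402 FPKM in heterozygotes and 332, 460.4 and 676 FPKM in WT, averaging 449 ± 218 FPKM in heterozygotes and 489 ± 174 FPKM in WT (log2 fold change −0.18, SE 0.42, limma adjusted p = 0.974). Ifi27 had 101, 275 and 147 FPKM in heterozygotes and 134, 202 and 233 FPKM in WT, averaging 175 ± 90.1 FPKM in heterozygotes and 189.6 ± 51.0 FPKM in WT (log2 fold change −0.20, SE 0.40, limma adjusted p = 0.967). Heterozygote library 2 was the highest and heterozygote library 1 the lowest for both genes, so that the heterozygotes alone spanned the whole range. Ifi35 averaged 7.58 ± 0.940 FPKM in heterozygotes and 7.66 ± 1.13 FPKM in WT, and Ifi27l2b averaged 1.01 ± 0.412 FPKM in heterozygotes and 1.09 ± 0.0949 FPKM in WT (SD, n = 3 each). The untested Ifi44 lay between 0.179 and 0.488 FPKM.

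The summed white adipocyte markers followed the same order of libraries. They were 1272.9, 4298.3 and 1757.3 FPKM in heterozygotes and 1402.8, 2169.1 and 3201.2 FPKM in WT. Cfd was the largest part of this sum in every library. Taken singly, Cfd, Plin1 and Retn had the order of the sum, and Adipoq, Cidec and Lep did not. Of the 51 tested members 4 had exactly the order of the sum, among them Ifi27, Ifi27l2a and Irf7, against 320 of the 12620 tested genes (2.54%). The order of the brown adipocyte markers was met by 1 member, against 0.499% of all tested genes. The orders of the macrophage, endothelial, B cell, smooth muscle and fibroblast markers were each met by 0 members, against 0.0475% to 1.23% of all tested genes. Ifi27, Ifi27l2a and Irf7 were singled out after their values were seen, and the part of fat content in them was not tested.

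**Figure D3:**
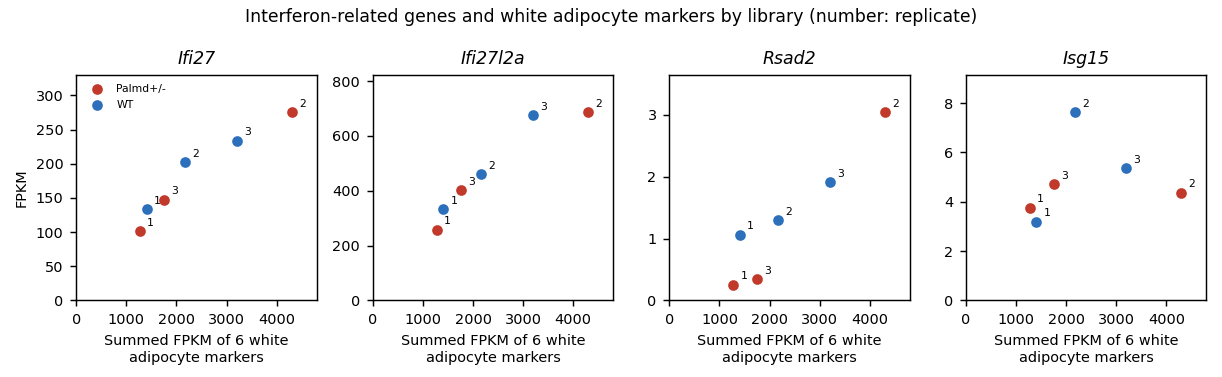
FPKM of Ifi27, Ifi27l2a, Rsad2 and Isg15 against the summed FPKM of 6 white adipocyte markers, on linear axes, with 1 point for each Palmd heterozygote (red) and WT (blue) library and its replicate number beside it. Heterozygote library 2 lies at the right with 4298.3 FPKM of markers, and Ifi27l2a reaches 687 FPKM there, against 259 FPKM in heterozygote library 1 at the left, whereas Isg15 is highest in WT library 2 (7.63 FPKM).

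The Ifi200 genes encode proteins with pyrin or DNA-binding HIN domains, some of which sense DNA, and lie together at chr1:173468485-174031810. Of the 12 genes 5 were tested, and all 5 had negative fold changes (median −0.25). Ifi205 (ENSMUSG00000054203, chr1:174011998-174031810) had 0.760, 0.568 and 0.773 FPKM in heterozygote libraries and 1.09, 1.33 and 1.79 FPKM in WT libraries. All 3 heterozygote libraries lay below all 3 WT libraries. The heterozygote mean of 0.701 ± 0.115 FPKM was 49.9% of the WT mean of 1.40 ± 0.360 FPKM (SD, n = 3 each), and the reads were 58, 41 and 59 in heterozygotes and 83, 102 and 135 in WT. Its log2 fold change of −0.49 (SE 0.15, 95% interval −0.84 to −0.14) had an unadjusted limma p of 0.0137 and an adjusted p of 0.620, and the exact permutation p was 0.1. With log2(FPKM + 0.1) the log2 fold change was −0.89. Ifi205 was the only member that reached the level for testing through one group alone, the WT libraries, so it had to be lower in heterozygotes to be tested as it was.

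The neighbours of Ifi205 were less far apart. Ifi207 had 7.33, 6.80 and 7.06 FPKM in heterozygotes and 7.15, 8.18 and 10.8 FPKM in WT, averaging 7.06 ± 0.266 FPKM in heterozygotes and 8.69 ± 1.86 FPKM in WT (log2 fold change −0.25, SE 0.15, limma adjusted p = 0.849). Ifi211 had 1.87, 2.56 and 3.07 FPKM in heterozygotes and 2.45, 3.81 and 3.70 FPKM in WT, averaging 2.50 ± 0.600 FPKM in heterozygotes and 3.32 ± 0.755 FPKM in WT (log2 fold change −0.30, SE 0.19, limma adjusted p = 0.861). Each had some overlap between the groups. Ifi204 averaged 3.11 ± 0.252 FPKM in heterozygotes and 3.72 ± 1.32 FPKM in WT, and Ifi203 averaged 3.53 ± 0.543 FPKM in heterozygotes and 3.53 ± 0.245 FPKM in WT (SD, n = 3 each). Without WT library 3 the log2 fold change was −0.10 for Ifi207 and 0.047 for Ifi204. The genes of this cluster are close copies, and the authors' counting could have split reads between them. Of the 7 untested genes, the pseudogene Ifi203-ps had 2.26 FPKM in heterozygote library 2 and 0.193 to 0.639 FPKM elsewhere, Ifi209 averaged 0.796 FPKM, and Ifi206 and Ifi213 followed.

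The guanylate-binding proteins, which coat and disrupt microbe-containing vacuoles, had no common direction. Of the 11 Gbp genes 6 were tested, 3 with a positive and 3 with a negative fold change, although with median-ratio scaling Gbp7 (−0.00071) and Gbp9 (−0.0086) turned just negative. Gbp2, the most abundant, had 15.6, 12.0 and 14.0 FPKM in heterozygotes and 14.6, 15.8 and 14.5 FPKM in WT, averaging 13.9 ± 1.78 FPKM in heterozygotes and 15.0 ± 0.695 FPKM in WT (log2 fold change −0.11, SE 0.12, limma adjusted p = 0.934). Gbp4 had 4.25, 2.76 and 2.83 FPKM in heterozygotes and 3.21, 4.68 and 4.07 FPKM in WT, averaging 3.28 ± 0.836 FPKM in heterozygotes and 3.98 ± 0.740 FPKM in WT (log2 fold change −0.23, SE 0.18, limma adjusted p = 0.914). Gbp3 had 6.98, 7.53 and 5.90 FPKM in heterozygotes and 5.70, 7.05 and 5.94 FPKM in WT, averaging 6.80 ± 0.828 FPKM in heterozygotes and 6.23 ± 0.723 FPKM in WT (log2 fold change 0.11, SE 0.12, limma adjusted p = 0.939). All of them overlapped between the groups. Gbp5 averaged 2.69 ± 0.918 FPKM in heterozygotes and 2.74 ± 0.391 FPKM in WT. Gbp7 averaged 3.66 ± 0.557 FPKM in heterozygotes and 3.56 ± 0.328 FPKM in WT, and Gbp9 averaged 6.60 ± 1.08 FPKM in heterozygotes and 6.43 ± 0.330 FPKM in WT (SD, n = 3 each). Gbp4, Gbp8 and Gbp9 share exons on the same strand, so their levels are uncertain.

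Gbp11, annotated as a polymorphic pseudogene, was not tested, and it had 0.387, 1.25 and 0.0814 FPKM in heterozygotes and 0.142, 0.344 and 6.91 FPKM in WT. WT library 3 held 335 of its reads, against 4 to 58 in each of the other libraries. This library also had the outlying value of Irf4. The other untested Gbp genes were Gbp8 (mean 0.759 FPKM), Gbp6 (0.581), Gbp10 (0.241) and Gbp2b (0.0823).

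The immunity-related GTPases lay lowest in heterozygotes of all role groups. They are induced mainly by interferon gamma, and the Irgm proteins keep effector GTPases such as Iigp1 off the membranes of the cell. All 4 were tested and all 4 had negative fold changes (median −0.36). Irgm1 (ENSMUSG00000046879, chr11:48861968-48871683) had 2.77, 2.94 and 3.07 FPKM in heterozygote libraries and 3.20, 3.72 and 4.09 FPKM in WT libraries. The highest heterozygote library lay just below the lowest WT library. The means were 2.93 ± 0.151 FPKM in heterozygotes and 3.67 ± 0.446 FPKM in WT (SD, n = 3 each), and the fitted log2 fold change of −0.25 (SE 0.11) had a 95% interval of −0.50 to 0.01. The limma adjusted p was 0.770, and the exact permutation p was 0.1.

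Igtp, also called Irgm3, had 9.61, 7.70 and 6.28 FPKM in heterozygotes and 7.98, 11.7 and 14.6 FPKM in WT, averaging 7.86 ± 1.67 FPKM in heterozygotes and 11.4 ± 3.29 FPKM in WT (log2 fold change −0.47, SE 0.23, limma adjusted p = 0.807). Irgm2 had 9.62, 6.88 and 8.37 FPKM in heterozygotes and 8.78, 11.1 and 14.0 FPKM in WT, averaging 8.29 ± 1.37 FPKM in heterozygotes and 11.3 ± 2.61 FPKM in WT (log2 fold change −0.39, SE 0.19, limma adjusted p = 0.798). Heterozygote library 1 exceeded WT library 1 for both, and the groups overlapped through that pair alone. Igtp and Irgm2 share exons on the same strand at chr11:58199556-58222782, so their reads are not fully separate. Iigp1 had 7.42, 6.97 and 5.37 FPKM in heterozygotes and 5.70, 9.17 and 11.6 FPKM in WT, averaging 6.59 ± 1.08 FPKM in heterozygotes and 8.81 ± 2.95 FPKM in WT (log2 fold change −0.33, SE 0.24, limma adjusted p = 0.891). WT library 3 was the highest library for all 4 GTPases. Without it the log2 fold changes were −0.28 for Igtp, −0.24 for Irgm2, −0.18 for Irgm1 and −0.13 for Iigp1, and all 4 stayed negative whichever library was left out.

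**Figure D4:**
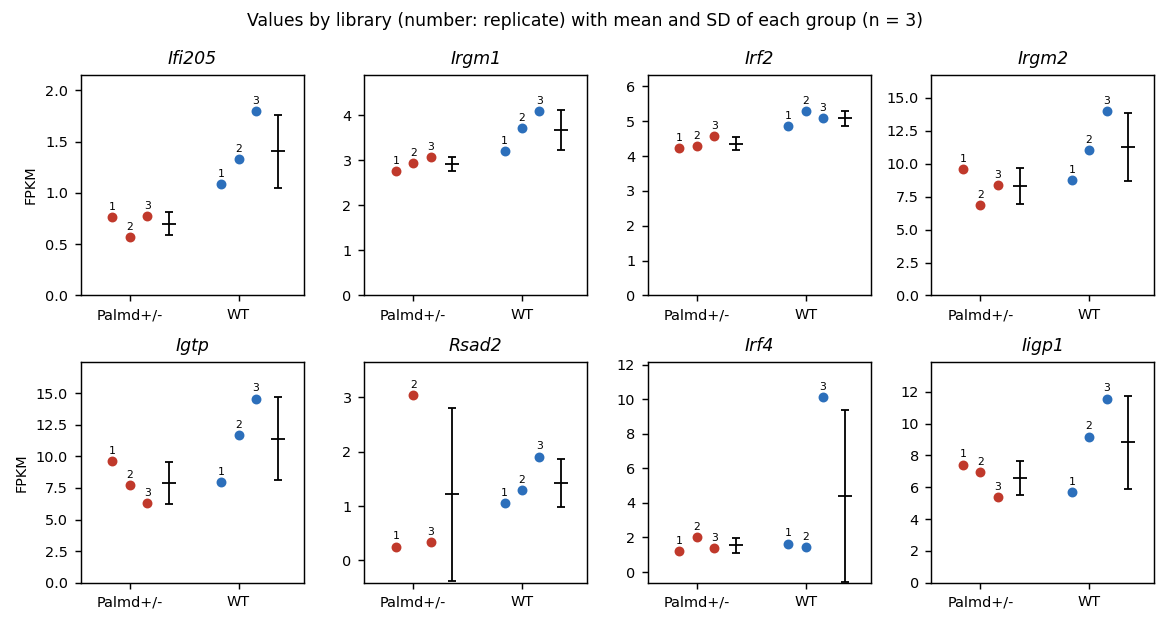
FPKM per library for selected members, with Palmd heterozygote libraries left of WT libraries, a numbered point for each library, and the mean and SD of each group beside its points (n = 3). Irgm1, Ifi205 and Irf2 show no overlap between the groups, while a single library stands far above the rest for Rsad2 (heterozygote library 2, 3.04 FPKM) and Irf4 (WT library 3, 10.1 FPKM).

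Among the tested members with an entry in the promoter table, those with ISRE letters in the window lay lower than those without. Of 21 tested members with the letters 19 had a negative fold change, with a median of −0.18, and 3 had no overlap between the groups, near the 12.9% of all tested genes without overlap. Of 18 tested members whose window lacked them 10 had a negative fold change, with a median of −0.03, and 0 were without overlap. No test was made of this split, which was not planned. Tested members without an entry in the promoter table are in neither part. The 3 members without overlap are Irgm1, Ifi205 and Irf2, printed above, and Ifi205 reached the level for testing through the WT libraries alone. Igtp and Irgm2, which share exons, both have the letters.

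WT libraries lay at both ends of the range. The median deviation of the 51 members from their own mean over all libraries, on the log2 scale, was −0.03, −0.09 and −0.02 in heterozygote libraries 1 to 3 and −0.12, 0.12 and 0.07 in WT libraries 1 to 3. WT library 1 was therefore the lowest of all 6 and WT library 2 the highest. WT library 2 was the highest library for 15 of the 51 members (29.4%), against 7.64% of all tested genes, and the lowest for 0 members, against 12.9% of all tested genes. Heterozygote library 2 was the highest for 10 members (19.6%), against 26.4% of all tested genes. It was the lowest for 17 members (33.3%), against 34.3% of all tested genes. WT library 2 also had the highest summed neutrophil markers, with 1.43, 0.18 and 0.19 FPKM in heterozygotes and 0.56, 10.3 and 3.89 FPKM in WT, although Ly6g was at 0 in every library. The part of these cells in the members' levels was not tested. The median SD of members within a group was 0.225 log2 units, against 0.177 over all tested genes. The upper quartiles were nearly equal, at 0.2916 for members and 0.2915 for all tested genes, and the sets were not matched for level.

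Genes of the interferon pathway outside the member rule were taken from lists by function. Of 21 interferon ligand entries 4 matched a symbol, namely Ifnb1, Ifng, Ifnz and Ifnab, and none was tested. The highest value was 0.179 FPKM, for Ifng in heterozygote library 2, and their summed level was 0 to 0.233 FPKM per library. Among the receptors and signal carriers 0 of 14 tested genes were called, 4 with a positive and 10 with a negative fold change (median −0.06).

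Socs3, a feedback inhibitor of cytokine receptors that is also induced by interleukin signals, had 3.37, 3.60 and 3.48 FPKM in heterozygotes and 4.81, 7.87 and 5.55 FPKM in WT. All heterozygote libraries lay below all WT libraries, with a log2 fold change of −0.63 (SE 0.16, limma adjusted p = 0.576). Of the 14 tested genes of this list, 1 (Socs3) had groups without overlap, against 12.9% of all tested genes. Likewise 1 (Socs3) had an unadjusted limma p under 0.05, against 6.50% of all tested genes. The related inhibitor Socs1 averaged 2.00 ± 0.256 FPKM in heterozygotes and 2.34 ± 0.332 FPKM in WT. The type I receptor chain Ifnar1 averaged 9.98 ± 0.604 FPKM in heterozygotes and 9.12 ± 0.518 FPKM in WT, and the gamma receptor chain Ifngr1 averaged 39.3 ± 5.29 FPKM in heterozygotes and 43.8 ± 5.77 FPKM in WT (SD, n = 3 each).

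Of the genes for sensing and induction 0 of 15 tested were called, 6 with a positive and 9 with a negative fold change (median −0.04). Unc93b1, which carries nucleic-acid-sensing Toll-like receptors to endosomes, had the smallest adjusted p, with 19.5 ± 2.33 FPKM in heterozygotes and 15.8 ± 2.03 FPKM in WT (log2 fold change 0.28, SE 0.14, limma adjusted p = 0.805). Dhx9 (−0.17), Nlrc5 (−0.20) and Tlr3 (0.12) followed, each a log2 fold change with overlapping groups.

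Interferon-induced genes outside the member rule did not lean lower. Of 48 tested 24 had a positive and 24 a negative log2 fold change, with a median of −0.0010, and 0 were called. Helz2, a transcriptional coactivator, averaged 7.43 ± 1.19 FPKM in heterozygotes and 9.75 ± 1.25 FPKM in WT (log2 fold change −0.35, limma adjusted p = 0.762), and Slfn5, a Schlafen protein, averaged 13.3 ± 0.706 FPKM in heterozygotes and 15.7 ± 0.558 FPKM in WT (log2 fold change −0.22, limma adjusted p = 0.765). These 2 of the 48 had an unadjusted limma p under 0.05, against 6.50% of all tested genes. Groups did not overlap for 5 of the 48, against 12.9% of all tested genes. Herc6 (−0.22), Slfn5 and Znfx1 (−0.25) were lower, and Parp12 (0.16) and Uba7 (0.20), the enzyme that activates Isg15, were higher, all as log2 fold changes. Whether the members and these genes differ in direction was not tested.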

How the data were processed

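Aortic RNA was sequenced in 3 Palmd heterozygote and 3 WT libraries. Per the labels' protocols, RNA was extracted with Trizol, selected on poly-T beads and primed with random hexamers. The deposited values are FPKM calculated by the authors (reads scaled to gene length and library; whether reads or fragments were counted is not stated). Tools named, per the submitters' processing notes, are TopHat2, Bowtie2 2.2.3 and HISAT2 2.1.0, with GRCm38 as the build; each tool's role, the counting tool and the gene models were not given in the sources used here. Headers inside the heterozygote files number the libraries differently from the titles; titles were used.

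The unit was checked against GENCODE M21 exon lengths (29687 of 29752 identifiers): 94.9% to 95.5% of low values per library were whole reads within 0.01 reads. Recovered reads of 3 members, Ifit1bl1, Iigp1 and Mx1, were not whole within 0.05 reads. Genes that reached 1 FPKM or more in 3 or more libraries were fitted with limma 3.58.1 (R 4.3.3) on log2(FPKM + 1) with a mean-variance trend, all 6 libraries, no covariate, and Benjamini-Hochberg adjustment over all 12620 genes at 0.05. Exact permutation tests and tables were made in Python 3.11.15 (pandas 2.3.3, numpy 2.4.6). The fit was also run on simulated data in 5 runs, each with 200 of 12620 genes changed. At an adjusted p of 0.05 it recovered 59.6% of 2-fold and 89.0% of 4-fold changes on the log2(FPKM + 1) scale. False calls numbered 7.2 per run, so a member changed 2-fold could be missed.

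Alternatives were another pseudocount, other filters, median-ratio scaling, each library left out, a replicate block, array quality weights, and limma voom on recovered reads. Members, gene lists and marker lists were chosen with earlier results of these data known. Every tested member is named with its group means, except 2 that enter the counts and medians but are not reported here. Per-library values and the fit are given for up to 3 members with the smallest p in each role group. They are also given for tested members without overlap or with an unadjusted limma p under 0.05, and for the 5 with the highest mean. The text says where a gene was singled out otherwise. For other pathway lists, up to 4 genes with the smallest p are named, and every tested gene without overlap.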

Additional observations from a re-analysis of the deposited data

How the results depend on the processing

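No member was called in the reported fit or under any of the 13 alternatives. The members' median log2 fold change stayed negative, from −0.16 to −0.04 with each library left out (−0.04 without WT library 2, −0.16 without WT library 1) and from −0.14 to −0.06 under the other settings. Members without overlap numbered 3, against 8 of 78 with no filter (10.1% of all genes) and 0 of 24 with at least 5 FPKM in 3 libraries (12.7%). With each library left out they numbered 2 to 13. The number was 2 of 49 without WT library 3 (18.5% of all genes) and 13 of 50 without WT library 1 (23.1%). Without heterozygote library 2 it was 11 of 50 (33.1%). Calls over all genes were 0, 0 to 1 with each library left out, and 232 with array quality weights, where the smallest adjusted p of a member was 0.0730 and 16 members and 3326 genes had an unadjusted p under 0.05. The labels state no pairing of libraries by replicate number. Correlations of same-numbered deviations were 0.51, −0.088 and −0.34, which cannot settle the point because deviations within a group sum to 0. With the replicate block 0 members and 0 genes were called. Of 605 alternative values of single members 53 changed sign, and 25 members kept their sign in every fit that tested them, 21 of them lower and 4 higher (Ifi30, Oas1b, Usp18 and Irf3). Of these, Ifi205 and Usp18 were tested in 3 of the 6 fits with a library left out, and 21 moved by over 1.5 times with some library left out and 5 with log2(FPKM + 0.1). Signs turned with log2(FPKM + 0.1) for Irf8 (−0.011), with median-ratio scaling for Gbp7 (−0.00071), Gbp9 (−0.0086) and Irf8 (−0.019), and with voom for Irf8 (−0.015). Array quality weights turned Gbp3 (−0.09), Gbp5 (0.062), Gbp9 (−0.063), Ifi27l2b (0.13), Ifi35 (0.026), Ifitm2 (0.17), Ifitm3 (0.041), Oasl2 (−0.10), Bst2 (0.033), Irf7 (−0.013) and Irf8 (−0.093). With each library left out, the ranges that crossed 0 were Ddx58 −0.14 to 0.0017, Gbp5 −0.20 to 0.17, Gbp7 −0.037 to 0.13, Gbp9 −0.088 to 0.11, Ifi203 −0.094 to 0.079, Ifi204 −0.35 to 0.047, Ifi27 −0.59 to 0.12, Ifi27l2a −0.54 to 0.16, Ifi27l2b −0.22 to 0.069, Ifi35 −0.094 to 0.090, Ifih1 −0.069 to 0.010, Ifit2 −0.036 to 0.15, Ifitm2 −0.21 to 0.21, Ifitm3 −0.17 to 0.11, Irf7 −0.088 to 0.29, Irf8 −0.14 to 0.14, Isg15 −0.49 to 0.029, Isg20 −0.028 to 0.10, Isg20l2 −0.071 to 0.25, Oas1a −0.092 to 0.036, Oas2 −0.26 to 0.079 and Oasl2 −0.11 to 0.14. The causes were not tested. Depth limits the low genes, since Ifi205 rests on 41 to 135 reads and Rsad2 on 20 to 228.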
